A study of Mus musculus with 7 samples.

Results

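Amino acid transporters were followed in CD8+ T cells exposed to small extracellular vesicles (sEV) from a leukemic or a healthy spleen. The 10 genes were chosen by name, *Slc7a5*, *Slc3a2*, *Slc7a1*, *Slc7a6*, *Slc7a11*, *Slc1a4*, *Slc1a5*, *Slc38a1*, *Slc38a2*, and *Slc43a1*, out of 55367 genes counted. All 10 were found by symbol, and all 10 had enough counts to be tested. The cells came from spleens of Foxp3 YFP/cre mice, whose *Foxp3* locus carries a YFP and Cre cassette that marks regulatory T cells, and this strain is shared by both groups. In 4 libraries the cells had received HCME-sEVs, the vesicles of the healthy control microenvironment, prepared from spleens of healthy mice. In 3 libraries they had received LME-sEVs, the vesicles of the leukemia microenvironment, prepared from spleens of leukemic Eμ-*TCL1* mice. Groups follow the labels, although a legend in the study swaps the sizes of the groups. The Eμ-*TCL1* model expresses the human *TCL1* oncogene in B cells and develops a disease that resembles chronic lymphocytic leukemia. The labels give 100 μg/mL of sEVs and 48 hours for every culture, whereas the methods describe amounts that follow each kind of spleen, and no library of cells without vesicles was analysed here. The methods describe CD8+ T cells kept on anti-CD3 with CD28 antibody, IL2, and β-mercaptoethanol, conditions that activate T cells.

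Amino acid transporters bring building blocks for protein and nucleotide synthesis across the plasma membrane, and T cells increase several of them upon activation. SLC7A5 is the light chain of LAT1, which takes up leucine and other large neutral amino acids, and it needs the heavy chain SLC3A2 (CD98) to reach the cell surface. SLC7A6 and SLC7A11 pair with the same heavy chain, the first as an exchanger of cationic and neutral amino acids and the second as the cystine and glutamate exchanger xCT. SLC7A1 carries arginine and lysine, SLC1A5 and SLC1A4 exchange small neutral amino acids, with glutamine a substrate of SLC1A5, SLC38A1 and SLC38A2 take up glutamine and alanine together with sodium, and SLC43A1 is a facilitator of large neutral amino acids. Leucine and arginine inside the cell feed the signal to mTORC1, and shortage of amino acids acts through the kinase GCN2 and the transcription factor ATF4, which binds composite elements in the promoters of several transporter genes. The comparison asks whether RNA of these carriers differed between the kinds of sEVs.

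RNA was read from the 3′ ends of transcripts with unique molecular identifiers (UMI), so that a count stands for a captured molecule and gene length does not enter a level. Totals lay between 3689831 and 5030522 counts per library, and the floor of detection was set at 3 counts. That floor equals 0.582 to 0.807 CPM, the count scaled to library size after TMM (trimmed mean of M values, factors 0.965 to 1.03). It covers counting error only. No replicate pair was within sampling noise (2.19 to 6.66 for chi-square over its degrees of freedom), with the 3 largest values of the HCME-sEV group, 4.54 to 6.66, in the pairs that hold library 1. Neither the labels nor the methods state whether replicates came from separate animals or cultures, so p-values measure only the spread between these samples, which may be technical. RNA of CD8+ T cells was present in all libraries: the summed level of 9 CD8+ T-cell markers lay between 3864 and 3913 CPM with HCME-sEVs and between 4106 and 4534 CPM with LME-sEVs. Of these 9, 2 were higher with LME-sEVs at an FDR under 0.05, *Cd3e* and *Cd3g*, against 3.75% of all tested genes. The others did not pass, and the mean of *Lck* was lower with LME-sEVs (415 CPM against 423 CPM). *Cd4* had at most 3 counts and *Foxp3* at most 1 count in any library.

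The composite element of ATF4 was searched as TGATGNAA on both strands from 250 bases before to 50 bases after the start sites of the members, in RefSeq promoters of GRCm38.p6. Of the 10 genes, 7 had a promoter entry, with 9 windows. *Slc7a5*, *Slc1a5*, and *Slc38a1* had none and were not searched. The element was found in the windows of *Slc7a11* and *Slc1a4* and, over all promoters of this length, in 1304 of 32851 (3.97%). Both windows are printed 5′ to 3′ on the strand of the gene, with the matching letters in capitals, because RNA of the factor itself differed between the groups, as described further on.

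Slc7a11, chr3:50443564-50443863, minus strand: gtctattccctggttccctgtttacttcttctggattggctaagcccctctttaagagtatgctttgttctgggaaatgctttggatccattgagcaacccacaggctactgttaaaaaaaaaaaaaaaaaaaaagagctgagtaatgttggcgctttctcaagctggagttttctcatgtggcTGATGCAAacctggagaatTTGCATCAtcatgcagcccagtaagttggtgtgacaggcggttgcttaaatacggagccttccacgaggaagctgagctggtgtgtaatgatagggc

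Slc1a4, chr11:20332664-20332963, minus strand: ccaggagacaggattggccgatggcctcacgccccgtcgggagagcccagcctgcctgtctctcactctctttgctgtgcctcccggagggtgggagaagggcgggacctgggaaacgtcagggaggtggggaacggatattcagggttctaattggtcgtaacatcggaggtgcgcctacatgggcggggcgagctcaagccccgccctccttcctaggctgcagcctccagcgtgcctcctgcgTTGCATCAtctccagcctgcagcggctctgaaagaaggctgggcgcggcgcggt

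In *Slc7a11* the element occurred as TGATGCAA, with its first base 66 bases before the start site, and again in the opposite orientation as TTGCATCA, 47 bases before it. In *Slc1a4* it occurred once, as TTGCATCA, with its first base 4 bases before the start site. The E-box CACGTG, which MYC and related factors bind and which reads the same on both strands, was found, among the 9 windows searched, in that of *Slc43a1* and in 2349 of all promoters (7.15%). A match is a stretch of letters and does not show that a factor was bound.

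None of the 10 transporters passed the threshold between LME-sEVs and HCME-sEVs. With the quasi-likelihood test of edgeR, Benjamini-Hochberg-adjusted over all 12623 tested genes, 0 of 10 had an FDR under 0.05, against a background of 8.96% of all tested genes. By direction, 0 of 10 were lower, against 5.21% of all genes, and 0 of 10 were higher, against 3.75%. An FDR under 0.05 together with a log2 fold change beyond 1 (the definition of a DEG) was reached by 0 of 10, against 1.28%. At an unadjusted p under 0.05 edgeR counted 2 of 10, *Slc7a5* and *Slc3a2*, against 22.7% of all genes. At the adjusted threshold DESeq2 called 1 of the 8 members to which it gave an adjusted p, against 8.54% of all genes with one, and limma-voom called 0 of 10, against 8.64%. In edgeR 2 of 10 were called without a filter beyond 1 count (4.43% of all genes), 2 with HCME-sEV library 3 removed (10.2%), 1 with HCME-sEV library 1 removed (7.36%), and 1 with LME-sEV library 3 removed (3.65%). The 2 groups of libraries overlapped for all 10 transporters, and they did not overlap for 20.3% of all tested genes. Whether the 10 genes differ from these background shares was not tested. The mean of 6 genes was lower and that of 4 was higher with LME-sEVs. The median log2 fold change was -0.061 over the 10 and 0.0095 over all tested genes, and the median size regardless of sign was 0.14 and 0.18. Over all genes 473 were higher and 658 lower, and with scaling by library size only in place of TMM the split was 614 against 465.

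**Figure D1:**
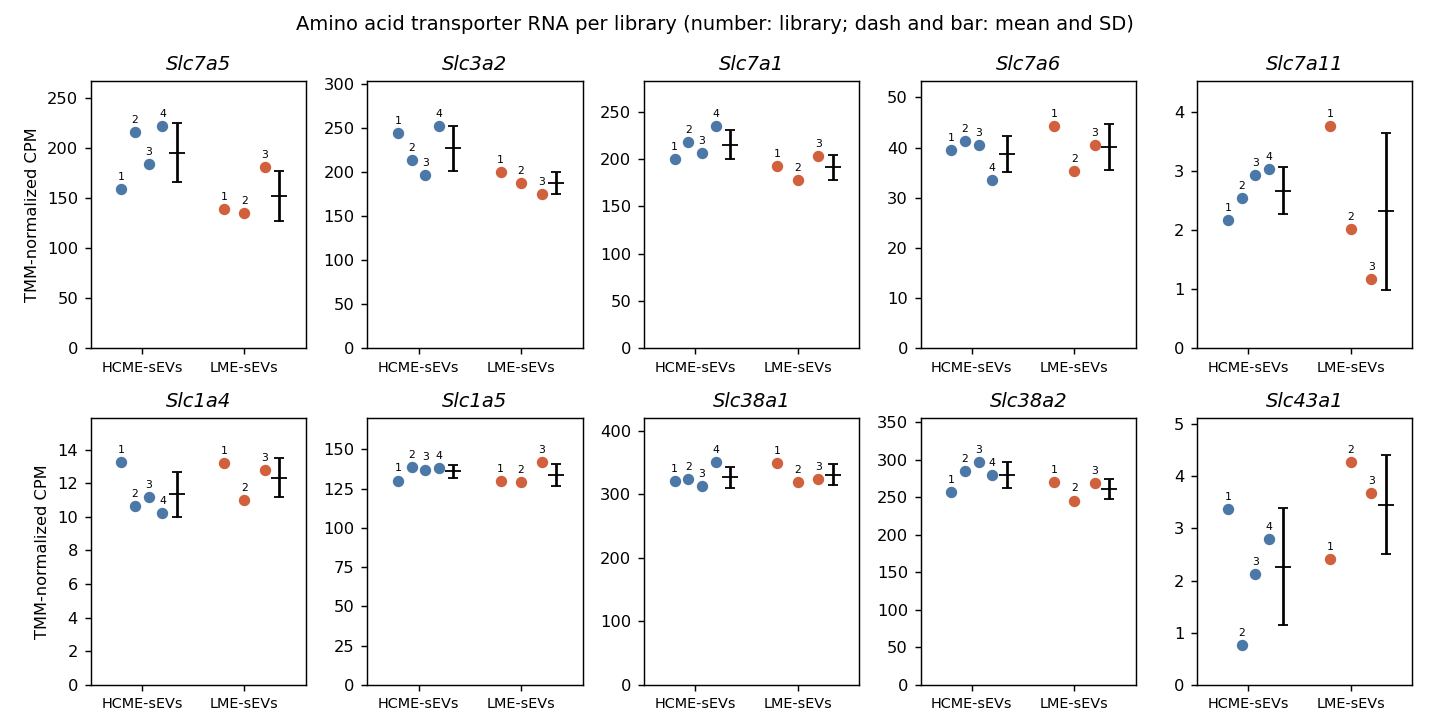
TMM-normalized CPM (y axis, linear and starting at 0, with a scale for each gene) of the 10 transporters in the HCME-sEV (n = 4) and LME-sEV (n = 3) libraries; points are libraries with their numbers, and dashes with bars are the mean and SD. For *Slc7a5* LME-sEV library 3, at 181 CPM, lies among the HCME-sEV libraries, and in no panel are the groups apart.

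*Slc7a5* and *Slc3a2*, the light and heavy chain of LAT1, had the smallest unadjusted p of the 10. *Slc7a5* (chromosome 8, 121881150 to 121907694, minus strand, GRCm38 with GENCODE vM21 for all genes) was at 159, 216, 184, and 222 CPM in HCME-sEV libraries 1 to 4 and at 139, 135, and 181 CPM in LME-sEV libraries 1 to 3. LME-sEV libraries 1 and 2 lay under every HCME-sEV library, and LME-sEV library 3 lay above HCME-sEV library 1. The means were 195 ± 29.7 CPM (n = 4, SD) and 152 ± 25.1 CPM (n = 3, SD), and the log2 fold change was -0.36 (standard error, SE, 0.11, 95% interval -0.60 to -0.12). Its FDR of 0.0529 in the Benjamini-Hochberg-adjusted quasi-likelihood test of edgeR missed the threshold, and so did an exact permutation test, two-sided, of the 35 ways to assign the libraries (p = 0.114, where 0.0286 is the smallest possible). Removal of single libraries changed the call. Without LME-sEV library 3 the log2 fold change was -0.51 (FDR = 0.0242, same adjusted edgeR test), without HCME-sEV library 1 it was -0.45 (FDR = 0.00680), without HCME-sEV library 3 it was -0.39 (FDR = 0.0397), and the FDR over all alternatives ranged from 0.00395 to 0.264. The spread of *Slc7a5* among replicates exceeded counting error, with a coefficient of variation of 15.2% and 16.5% in the groups where counting alone gives 3.56% and 3.83%.

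*Slc3a2* (chromosome 19, 8706882 to 8723369, minus strand) was at 244, 214, 197, and 253 CPM in HCME-sEV libraries 1 to 4 and at 200, 188, and 175 CPM in LME-sEV libraries 1 to 3. Here only LME-sEV library 1 entered the range of the HCME-sEV libraries, through library 3 of that group. Means were 227 ± 26.1 CPM (n = 4, SD) and 187 ± 12.4 CPM (n = 3, SD), with a log2 fold change of -0.28 (SE 0.090, 95% interval -0.47 to -0.090, FDR = 0.0597 in the same adjusted edgeR test; exact permutation p = 0.0857). Without HCME-sEV library 3 it was -0.34 with an FDR of 0.0150, and the FDR over all alternatives ranged from 0.0150 to 0.260 (same adjusted edgeR test except where the alternative is another tool).

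**Figure D2:**
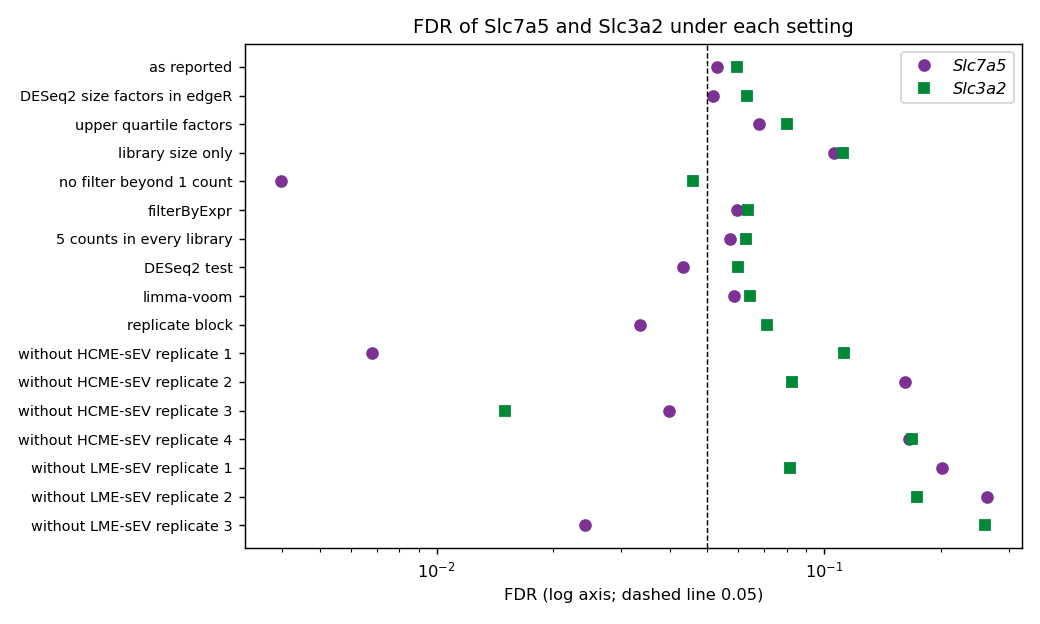
FDR of *Slc7a5* (circles) and *Slc3a2* (squares) on a log axis, as reported and under each of 16 other settings (rows), with a dashed line at 0.05. *Slc7a5* lies left of the line in 6 of the 16 and *Slc3a2* in 2.

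The other light chains of CD98 were measured at lower levels. *Slc7a6* (chromosome 8, 106168857 to 106198706, plus strand) was at 39.5, 41.3, 40.5, and 33.5 CPM with HCME-sEVs and at 44.4, 35.3, and 40.5 CPM with LME-sEVs. The libraries were interleaved, and the log2 fold change of 0.048 (95% interval -0.19 to 0.29, FDR = 0.856, same adjusted edgeR test) had no stable sign, since it was -0.017 with HCME-sEV library 4 removed and -0.020 with LME-sEV library 1 removed. *Slc7a11* (chromosome 3, 49892526 to 50443614, minus strand) was near the limit of detection, with 9, 10, 11, and 13 counts in the HCME-sEV group and 14, 9, and 6 in the LME-sEV group. These correspond to 2.17, 2.53, 2.93, and 3.03 CPM and to 3.77, 2.02, and 1.16 CPM. The LME-sEV libraries enclosed the range of the HCME-sEV group, and the log2 fold change of -0.26 (SE 0.42, 95% interval -1.13 to 0.60, FDR = 0.772, same adjusted edgeR test) turned to 0.092 without LME-sEV library 3.

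Ratios within a library do not depend on the scaling, and the balance of partner genes was compared as log2 ratios of counts with a two-sided exact permutation test, adjusted by Benjamini and Hochberg over 5 ratios. The ratio of *Slc7a5* to *Slc3a2* counts was 0.650, 1.01, 0.934, and 0.879 with HCME-sEVs and 0.698, 0.720, and 1.03 with LME-sEVs. HCME-sEV library 1 and LME-sEV libraries 1 and 2 were low and the others near 1, so the split did not follow the groups (log2 difference -0.093, exact permutation p = 0.714, adjusted p = 0.83). Ratios of *Slc7a6* to *Slc3a2* lay between 0.133 and 0.207 with HCME-sEVs and between 0.189 and 0.232 with LME-sEVs (log2 difference 0.32, exact permutation p = 0.171, adjusted p = 0.5). For *Slc7a11* to *Slc3a2* the log2 difference was -0.068 (exact permutation p = 0.83, adjusted p = 0.83). None of the 5 ratios passed the threshold before or after adjustment.

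*Slc7a1* (chromosome 5, 148327410 to 148399904, minus strand), the carrier of cationic amino acids, was at 200, 218, 206, and 235 CPM in HCME-sEV libraries 1 to 4. In LME-sEV libraries 1 to 3 it was at 193, 177, and 203 CPM. Only LME-sEV library 3 reached into the HCME-sEV range, just above library 1 of that group. The means of 215 ± 15.5 CPM (n = 4, SD) and 191 ± 13.0 CPM (n = 3, SD) gave a log2 fold change of -0.17 (SE 0.082, 95% interval -0.34 to 0.00067), with an FDR of 0.223 in the Benjamini-Hochberg-adjusted quasi-likelihood test of edgeR and p = 0.114 in the exact permutation test. Over all alternatives it stayed negative, from -0.22 to -0.12, and was never called.

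Carriers of glutamine and small neutral amino acids differed in how precisely they were measured, with *Slc38a1*, *Slc38a2*, and *Slc1a5* having the smallest standard errors of the 10. *Slc1a5* (chromosome 7, 16781340 to 16798274, plus strand) was at 130, 139, 137, and 138 CPM with HCME-sEVs and at 130, 129, and 142 CPM with LME-sEVs. The libraries of both groups were spread over the same narrow range, with a coefficient of variation of 2.89% and 5.37% where counting alone gives 4.27% and 4.10%. The log2 fold change was -0.025 (SE 0.079, 95% interval -0.19 to 0.14, FDR = 0.895, the Benjamini-Hochberg-adjusted quasi-likelihood test of edgeR), so that a difference of RNA beyond 0.19 on the log2 scale lay outside the interval. With scaling by library size only the value was 0.021. *Slc1a4* (chromosome 11, 20302180 to 20332713, minus strand) was far less abundant, at 13.3, 10.6, 11.2, and 10.2 CPM against 13.2, 11.01, and 12.8 CPM, and its groups overlapped (log2 fold change 0.12, 95% interval -0.24 to 0.48, FDR = 0.747, same adjusted edgeR test). The ratio of *Slc1a5* to *Slc1a4* counts lay between 9.74 and 13.3 with HCME-sEVs and between 9.75 and 11.6 with LME-sEVs (log2 difference -0.15, exact permutation p = 0.343, adjusted p = 0.572).

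*Slc38a1* (chromosome 15, 96571418 to 96642913, minus strand) was the most abundant of the 10 in every library, at 320, 324, 313, and 350 CPM with HCME-sEVs and 350, 319, and 324 CPM with LME-sEVs. Highest values of the groups were nearly the same, and the log2 fold change was 0.016 (SE 0.074, 95% interval -0.14 to 0.17, FDR = 0.933, same adjusted edgeR test), and it was -0.0046 with HCME-sEV library 3 removed and -0.019 with LME-sEV library 1 removed. Its neighbor on the chromosome, *Slc38a2* (96687392 to 96699730, minus strand), was at 256, 285, 296, and 280 CPM and at 270, 245, and 268 CPM. HCME-sEV library 1 was the lowest of its group and lay among the LME-sEV libraries (log2 fold change -0.097, SE 0.077, 95% interval -0.26 to 0.064, FDR = 0.499, same adjusted edgeR test). The ratio of *Slc38a1* to *Slc38a2* counts was between 1.06 and 1.25 with HCME-sEVs and between 1.21 and 1.30 with LME-sEVs (log2 difference 0.11, exact permutation p = 0.2, adjusted p = 0.5).

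*Slc43a1* (chromosome 2, 84838850 to 84863594, plus strand), the facilitator LAT3, had the largest log2 fold change of the 10 and one of the lowest counts. It was counted 14, 3, 8, and 12 times in HCME-sEV libraries 1 to 4, or 3.37, 0.760, 2.13, and 2.79 CPM, and 9, 19, and 19 times in LME-sEV libraries 1 to 3, or 2.42, 4.27, and 3.68 CPM. HCME-sEV library 2 sat at the floor of 3 counts, and LME-sEV library 1 lay within the HCME-sEV range. The log2 fold change was 0.61 with a standard error of 0.40 and a 95% interval from -0.23 to 1.45 (FDR = 0.398, the Benjamini-Hochberg-adjusted quasi-likelihood test of edgeR), and it was between 0.33 and 0.87 with each library left out in turn.

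**Figure D3:**
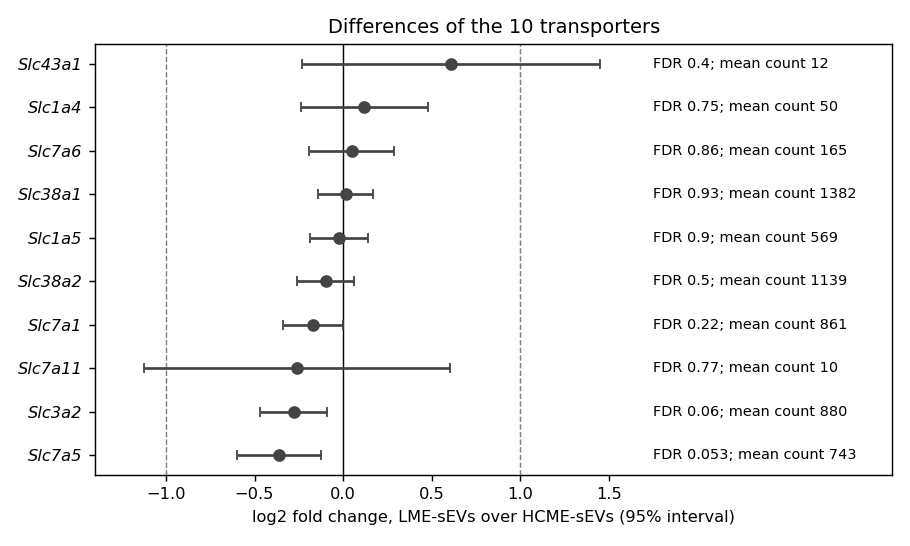
Log2 fold change of LME-sEVs over HCME-sEVs (x axis) of the 10 transporters, with 95% intervals from edgeR's quasi-likelihood fit as bars and the FDR and mean count beside each; dashed lines mark the DEG cutoff of 1 in either direction. The intervals of *Slc7a11* and *Slc43a1*, with mean counts of 10.3 and 12, cross a dashed line, and the other 8 do not.

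The widest 95% intervals were those of *Slc7a11* and *Slc43a1*, which had the lowest mean counts. Width did not follow the count alone. The standard error was 0.114 for *Slc7a5* at a mean count of 743 and 0.115 for *Slc7a6* at 165. For 8 of the 10 genes the 95% interval lay within a log2 fold change of 1 in either direction. Limits of the 7 genes whose mean count reached 100 lay between -0.60 and 0.29, all inside the DEG cutoff. The interval of *Slc7a11* reached below -1 and that of *Slc43a1* above 1, so a difference of that size in that direction was not excluded for them.

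The order of levels was much the same in both groups. With HCME-sEVs it ran *Slc38a1* (327 CPM), *Slc38a2* (279), *Slc3a2* (227), *Slc7a1* (215), *Slc7a5* (195), *Slc1a5* (136), *Slc7a6* (38.7), *Slc1a4* (11.3), *Slc7a11* (2.67), and *Slc43a1* (2.27 CPM). Among neighbors in this order the libraries overlapped for *Slc3a2* and *Slc7a1*, for *Slc7a1* and *Slc7a5*, and for *Slc7a11* and *Slc43a1*. With LME-sEVs *Slc7a1* (191 CPM) stood before *Slc3a2* (187 CPM) and *Slc43a1* before *Slc7a11*, both within overlapping ranges, and *Slc7a5* (152 CPM) also overlapped *Slc1a5* (133 CPM), which it did not with HCME-sEVs. In the range of all tested genes the 6 most abundant carriers stood between the 87.9 and the 96.2 percentile of mean level, *Slc7a6* at 63.4, *Slc1a4* at 37.7, *Slc43a1* at 15.2, and *Slc7a11* at 13.6.

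Together the 10 genes held 1368, 1451, 1390, and 1528 CPM in HCME-sEV libraries 1 to 4 and 1344, 1246, and 1351 CPM in LME-sEV libraries 1 to 3. The means were 1434 ± 71.8 CPM (n = 4, SD) and 1314 ± 58.8 CPM (n = 3, SD), and the sum was not tested. Every LME-sEV library lay under the lowest HCME-sEV library with TMM, but the groups overlapped with scaling by library size only, where HCME-sEV library 1 was at 1316 CPM and LME-sEV libraries 1 and 3 were at 1354 and 1385 CPM. *Slc38a1* and *Slc38a2* made up 42.3% of it with HCME-sEVs and 45.1% with LME-sEVs. *Slc7a5* made up 13.6% and 11.5%, *Slc3a2* 15.8% and 14.3%, *Slc1a5* 9.49% and 10.2%, and *Slc7a1* 15.0% and 14.5%.

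**Figure D4:**
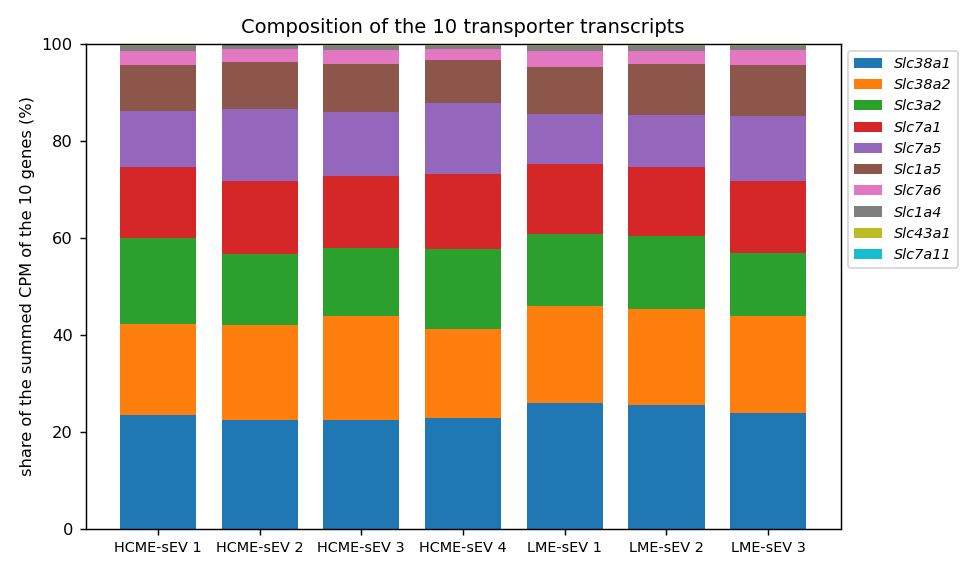
Share of each transporter in the summed CPM of the 10 genes (y axis, percent) in each library (x axis). *Slc38a1* (bottom) made up 22.3% to 23.4% in HCME-sEV libraries and 24.0% to 26.0% in LME-sEV libraries, while *Slc43a1* and *Slc7a11* are too scarce to be visible.

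Other carriers of amino acids on the plasma membrane and lysosome were counted from a list of 48 symbols, of which 47 were in the counts and 19 had enough counts to be tested. Of these, 2 were higher, 0 were lower, and 17 did not pass, with a median log2 fold change of 0.14. Among all tested genes 3.75% were higher and 5.21% lower. *Slc6a19*, a sodium-dependent carrier of neutral amino acids best known from gut and kidney, rose from 7.47, 7.35, 8.27, and 7.92 CPM in HCME-sEV libraries to 10.8, 13.9, and 20.7 CPM in LME-sEV libraries. The groups did not overlap and LME-sEV library 3 was the highest (log2 fold change 0.99, SE 0.21, FDR = 0.00579, same adjusted edgeR test), and without that library it was 0.68 and not called. *Slc43a3*, of the same family as *Slc43a1*, is counted in this list although it is known as a carrier of purine bases. It rose from 69.4 ± 6.42 (n = 4, SD) to 91.9 ± 5.19 CPM (n = 3, SD). The log2 fold change was 0.40 (SE 0.093, FDR = 0.0103, same adjusted edgeR test), and *Slc43a3* was called with each library left out. The other 28 of the list had at most 6 counts in any library, and 6 of them were at 0 in all. Of 9 tested mitochondrial amino acid carriers 0 passed in edgeR, against 8.96% of all tested genes. At an unadjusted p under 0.05 edgeR counted 2 of the 9 carriers, against 22.7% of all genes. DESeq2 and limma-voom also called 0 of them, against 8.54% of genes with an adjusted p and 8.64% of all tested genes. Removal of HCME-sEV library 3 gave 1, against 10.2% of all tested genes.

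Among 165 tested solute carriers outside the 10, 6 were higher and 7 lower, against 3.75% and 5.21% of all tested genes. Of the 165, 1, *Slc22a17*, was a DEG, against 1.28% of all tested genes. The highest log2 fold changes were those of *Slc22a17*, known as a receptor of lipocalin (1.41, FDR = 0.00929), *Slc6a19*, *Slc49a4* (0.84, FDR = 0.0160), and the potassium and chloride cotransporter *Slc12a7* (0.60, FDR = 0.0299), all from the same adjusted edgeR test. At the other end stood the zinc carriers *Slc39a8* (-0.84, FDR = 0.0144) and *Slc39a6* (-0.46, FDR = 0.0142), the biotin and pantothenate carrier *Slc5a6* (-0.62, FDR = 0.0425), the folate carrier *Slc19a1* (-0.42, FDR = 0.0106), and *Slc35a4* (-0.40, FDR = 0.0316). Each of these 9 lost its call on removal of at least 1 library: LME-sEV library 2 for *Slc22a17* and *Slc39a6*, LME-sEV library 3 for *Slc6a19* and *Slc19a1*, either of these for *Slc39a8*, and HCME-sEV library 2, LME-sEV library 2, or LME-sEV library 3 for *Slc49a4*. *Slc12a7* and *Slc35a4* lost it on removal of 4 and 5 of the 7 libraries, and *Slc5a6* was called only when HCME-sEV library 3 was the one removed. The number called of the 165 fell to 6 without HCME-sEV library 2 and to 3 without LME-sEV library 2 or 3. Over all 12623 tested genes it fell as well, from 1131 to 716, 393, and 461 in these settings. A list of 22 glucose, lactate, vitamin, and cation carriers had a median of -0.19. Of these, 5 were lower and 0 higher, against 5.21% and 3.75% of all tested genes. Besides *Slc19a1*, *Slc39a6*, and *Slc5a6*, these were the glucose carrier *Slc2a1*, which fell from 92.7 ± 6.92 (n = 4, SD) to 70.7 ± 13.8 CPM (n = 3, SD; FDR = 0.0263), and the lactate carrier *Slc16a1*, which fell from 137 ± 14.1 (n = 4, SD) to 111 ± 9.40 CPM (n = 3, SD; FDR = 0.0496, same adjusted edgeR test). *Slc2a1* lost its call on removal of HCME-sEV library 2, LME-sEV library 2, or LME-sEV library 3, and *Slc16a1* was called in 3 of the 16 alternatives. The count for the list of 22 was 2 without HCME-sEV library 2, 1 without LME-sEV library 2, 1 without LME-sEV library 3, and 3 without HCME-sEV library 4 or LME-sEV library 1. Over all tested genes 716, 393, 461, 916, and 842 were called in these settings, against 1131 with all libraries.

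Of 23 tested enzymes that use imported amino acids, 1 was higher and 3 were lower, against 3.75% and 5.21% of all tested genes. *Mat2a*, which makes S-adenosylmethionine from methionine, fell from 516 ± 64.8 (n = 4, SD) to 376 ± 31.5 CPM (n = 3, SD), a log2 fold change of -0.46 (SE 0.092, FDR = 0.00373, same adjusted edgeR test), and was called in all 16 alternatives. *Bcat1*, the cytosolic transaminase of branched-chain amino acids that enter through LAT1, fell from 56.4 ± 1.72 (n = 4, SD) to 41.9 ± 5.63 CPM (n = 3, SD; log2 fold change -0.42, FDR = 0.0154). *Gclc*, the catalytic subunit for the first step of glutathione synthesis from cysteine and glutamate, fell by 0.34 on the log2 scale (FDR = 0.0390), and *Pycr1*, a proline-synthesizing enzyme, rose by 0.68 (FDR = 0.0389, all from the same adjusted edgeR test). *Gclc* was called in 7 and *Pycr1* in 10 of the 16 alternatives, and both lost their call on removal of LME-sEV library 1, LME-sEV library 2, or HCME-sEV library 3, among others. *Bcat1* lost its call on removal of LME-sEV library 1 or 2, when the count for the list was 1. Over all tested genes 842 and 393 were called without these libraries, against 1131 with all.

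The list of the ATF4 amino acid response, in which 25 of 25 genes were tested, had 1 higher and 6 lower. Among all tested genes 3.75% were higher and 5.21% lower. Regardless of the threshold, 9 genes of the list had a positive log2 fold change and 16 a negative one, with a median of -0.16. *Atf4* itself was at 627, 546, 485, and 571 CPM in HCME-sEV libraries 1 to 4 and at 463, 386, and 378 CPM in LME-sEV libraries 1 to 3. No LME-sEV library reached the HCME-sEV range, and *Atf4* fell by 0.45 on the log2 scale (SE 0.091, FDR = 0.00430, the Benjamini-Hochberg-adjusted quasi-likelihood test of edgeR), with a call in all 16 alternatives. *Atf3*, a related stress factor, fell from 17.9 ± 1.14 (n = 4, SD) to 8.77 ± 2.36 CPM (n = 3, SD; log2 fold change -0.997, FDR = 0.00174), and *Atf5* from 10.7 ± 1.95 (n = 4, SD) to 5.11 ± 0.994 CPM (n = 3, SD; log2 fold change -1.04, FDR = 0.00723, same adjusted edgeR test). *Eif2s1*, a subunit of the translation factor whose phosphorylation starts this response, fell by 0.33 (FDR = 0.0170), whereas *Eif2ak3*, which encodes the kinase PERK, rose by 0.66 (FDR = 0.00929, same adjusted edgeR test). *Slc7a11* and *Slc1a4*, which carry the element printed above, did not pass (log2 fold changes -0.26 and 0.12). Their 95% intervals ran from -1.13 to 0.60 and from -0.24 to 0.48, with 6 to 14 counts of *Slc7a11* per library. Whether they followed *Atf4* was not tested. *Atf3* was called in all 16 alternatives, *Atf5* lost its call on removal of LME-sEV library 2, *Eif2ak3* on that of LME-sEV library 3, and *Eif2s1* on that of HCME-sEV library 2, LME-sEV library 1, or LME-sEV library 3. The count for the list was 4 without LME-sEV library 2 and 3 without LME-sEV library 3. Over all tested genes 393 and 461 were called without these libraries, against 1131 with all.

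In the list of mTORC1 and its amino acid sensing 37 of 37 genes were tested, with a median log2 fold change of -0.037. Of these, 1 was higher and 0 were lower, against 3.75% and 5.21% of all tested genes. *Bmt2*, also known as SAMTOR, a sensor of S-adenosylmethionine that restrains mTORC1, rose from 32.0 ± 3.06 (n = 4, SD) to 45.7 ± 5.88 CPM (n = 3, SD), a log2 fold change of 0.52 (SE 0.12, FDR = 0.00832, same adjusted edgeR test), and it was not called without LME-sEV library 3, when the count was 0. The count was 2 without HCME-sEV library 1, 3 without HCME-sEV library 3, and 3 without a filter beyond 1 count. Of all tested genes 7.36%, 10.2%, and 4.43% were called in these settings, and 3.65% without LME-sEV library 3. *Slc38a9*, the arginine sensor of the lysosome, was at 27.0 ± 3.75 CPM (n = 4, SD) and 33.1 ± 2.81 CPM (n = 3, SD) and did not pass (FDR = 0.163, same adjusted edgeR test).

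**Figure D5:**
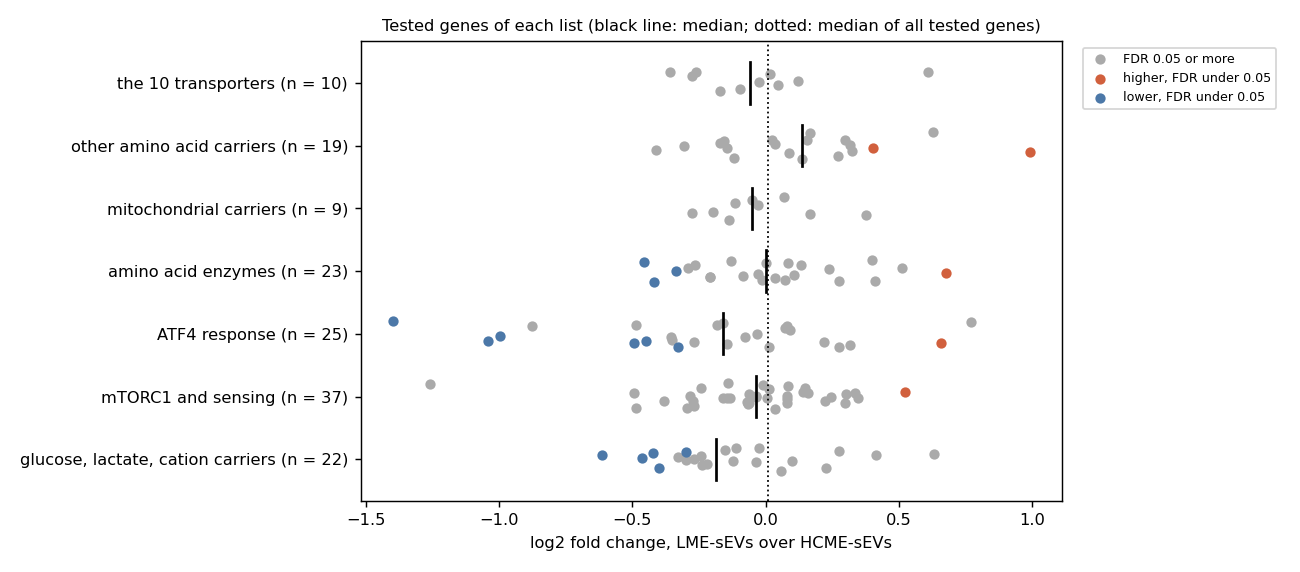
Log2 fold change of LME-sEVs over HCME-sEVs (x axis) of each tested gene in the 10 transporters and 6 lists of related genes (rows, with the number tested); color marks genes with an FDR under 0.05, black lines the median of a list, and the dotted line the median of all tested genes. The 10 transporters hold no colored point.

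Annotated neighbors could enter some of these counts, since the sources used here do not state whether counting used the strand. For the 10 transporters 0 exons overlapped another gene and 0 near-identical 3′ ends were found. Exons of *Atf5*, *Bcat1*, *Eif2ak3*, *Mat2a*, *Slc2a1*, *Slc5a6*, and *Slc35a4* overlap genes of the opposite strand, and the 3′ end of *Slc5a6* is nearly identical to that of *Gm6157*, so the values of these 7 genes are uncertain. *Slc49a4* was not matched to the annotation and its neighbors were not checked. Markers of other cells were summed as well. The summed level of 8 B-cell markers lay between 238 and 280 CPM with HCME-sEVs and between 319 and 341 CPM with LME-sEVs. *Ighm* made up most of it and was the 1 called higher among the 4 that were tested. *Cd79a* had at most 2 counts. Sums of 8 markers each lay between 1.07 and 2.89 against 4.05 and 6.73 CPM for myeloid cells (0 tested), between 9.88 and 40.8 against 35.1 and 52.4 CPM for basophils, mast cells, and eosinophils, and between 71.8 and 175 against 151 and 197 CPM for erythroid cells and platelets. In the list of basophils, mast cells, and eosinophils 3 of 7 tested genes were higher (*Mcpt8*, *Prss34*, and *Prg2*). In that of erythroid cells and platelets 3 of 6 tested genes were higher (*Hba-a1*, *Pf4*, and *Ppbp*), and 3.75% of all tested genes were. The other tested genes of both lists did not pass, among them *Cpa3*, whose mean was lower with LME-sEVs (7.67 CPM against 9.18 CPM). No marker was at 0 in all libraries. For NK cells the sum of 4 markers lay between 176 and 200 against 159 and 176 CPM and was nearly all *Eomes*, which CD8+ T cells also express. The part of these cells in the transporter values was not tested, and in bulk RNA fewer cells of a type and less RNA per cell cannot be told apart.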

How the data were processed

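RNA of 7 libraries (4 HCME-sEV and 3 LME-sEV) was measured with a 3′ kit that adds UMI. Per the labels, reads were processed with cutadapt 2.10, STAR 2.5.3a on GRCm38, UMI-tools 1.0.0, and featureCounts of Subread 2.0.0; the annotation and the strand setting of counting are not given in the sources used here. The authors deposited whole-number counts per gene symbol, without normalization or filter. Collapsing by UMI removes PCR copies, so counts stand for molecules. The 12623 genes whose mean count per library reached 5 were normalized by TMM and tested in R 4.3.3 with edgeR 4.0.16 (glmQLFit and glmQLFTest, no covariate), with Benjamini-Hochberg adjustment over all tested genes; the threshold was an FDR of 0.05. Standard errors and 95% intervals came from the quasi-likelihood F statistic. Ratios used counts plus 0.5. Coordinates were matched to GENCODE vM21, promoters to RefSeq, and 3′ ends searched with blast 2.17.0 (95% identity over at least 200 of the last 300 bases).

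The 10 genes and all lists were chosen with earlier results of these data known. The text names the 10 genes, in each list the up to 5 called genes with the smallest p, and among other solute carriers the called genes at either end of the log2 fold changes, 5 each, whose mean count reached 20 in the higher group; 1 gene that this rule selects is not reported here, and *Slc38a9* and the markers were added after their values were seen. Alternatives were other scaling (DESeq2 size factors, upper quartile, library size only), other filters, DESeq2 1.42.0, limma-voom (limma 3.58.1), a replicate block, other pseudocounts, and leaving out each library. Python 3.11.15, pandas 2.3.3, and matplotlib 3.10.9 were used for tables and plots.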

Additional observations from a re-analysis of the deposited data

How the results depend on the processing

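Of 157 values of single transporters under alternatives, 140 kept their direction and their side of the threshold, 8 became called, 9 changed sign, and 0 calls were lost, since none existed. The number of transporters called was 0 as reported (8.96% of all tested genes). It was 2 without a filter beyond 1 count (4.43%) and 1 with the DESeq2 test (8.54% of genes with an adjusted p). With each library left out it was 0 to 2, where 393 to 1293 of all 12623 tested genes were called. *Slc7a5* was called in 6 of 16 settings, among them no filter beyond 1 count (log2 fold change -0.35, FDR = 0.00395), the DESeq2 test (-0.36, FDR = 0.0432), and removal of HCME-sEV library 1, HCME-sEV library 3, or LME-sEV library 3. *Slc3a2* was called in 2, without a filter beyond 1 count (-0.27, FDR = 0.0458) and without HCME-sEV library 3. *Slc43a1* could not be tested with a minimum of 5 counts in every library, and DESeq2 gave no adjusted p for *Slc7a11* and *Slc43a1*, so these values are not among the 157. The mean difference of the summed CPM of the 10 was -120 with TMM and -78.4 with library size only, an alternative chosen after seeing the data.

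Sign changes concerned values that were never called. *Slc7a6* was at -0.019 with the replicate block and -0.020 to 0.13 with libraries left out (below 0 without HCME-sEV 4 or LME-sEV 1). *Slc7a11* ranged from -0.75 to 0.092 (above 0 without LME-sEV 3). *Slc1a5* was at 0.021 with library size only and -0.071 to 0.0012 with libraries left out (above 0 without LME-sEV 1, and at 9.96e-05 without LME-sEV 2). *Slc38a1* ranged from -0.019 to 0.051 (below 0 without LME-sEV 1, and at -0.0046 without HCME-sEV 3). The cause was not tested.

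The number of all genes called was 1131, and 393 to 1293 with each library left out (393 without LME-sEV 2, 461 without LME-sEV 3, 716 without HCME-sEV 2). The 6 lists of related genes held 19 called genes among 131 tested, against 8.96% of all tested genes. With each library left out the lists held 8 to 21. No scaling moved the median log2 fold change of all genes beyond 0.055. Ratios left out in turn ranged from -0.27 to 0.0082 for *Slc7a5* to *Slc3a2*, 0.19 to 0.41 for *Slc7a6* to *Slc3a2*, -0.44 to 0.28 for *Slc7a11* to *Slc3a2*, 0.063 to 0.15 for *Slc38a1* to *Slc38a2*, and -0.25 to -0.078 for *Slc1a5* to *Slc1a4*.

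Replicate numbers 1 to 3 are shared by the groups. Deviations of same-numbered libraries from their group means correlated at 0.072, 0.15, and 0.027, and not every library correlated best with its own number, so the number was not taken to pair them. With the replicate block 1454 genes (11.5%) were called, 4 in the mTORC1 list in place of 1, 20 of the other solute carriers in place of 13, and 1 of the 10 transporters, *Slc7a5* (-0.30, FDR = 0.0335).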
